A study of Mus musculus with 8 samples.

Results

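Naive CD8 T cells are described here in splenocytes of mice that lack Eif3e in activated B cells and in their controls. They were chosen by their own UMIs (unique molecular identifiers, each counting 1 captured mRNA molecule) in the 4 libraries of total sorted splenocytes. A cell was a member with more than 100 genes, at most 10% mitochondrial UMIs, at least 2 UMIs of Cd3d, Cd3e and Cd3g together, at most 1 of Cd79a and Ms4a1, at least 1 of Cd8a and Cd8b1, none of Cd4, and at least 1 of Lef1 and Ccr7. A member also had UMIs of fewer than 2 of the 5 memory genes Il2rb, Cxcr3, Ccl5, Cd44 and Gzmk. This left 2465 cells of the 42183 kept in these libraries and of 83704 in all 8 libraries, with 819 and 866 in control total 1 and 2 and 448 and 332 in cKO total 1 and 2.

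The cKO mice carried floxed Eif3e alleles, Cγ1Cre and a Rosa26-YFP LSL reporter, and the control mice carried Cγ1Cre and the reporter without the floxed alleles. All were C57BL/6J mice aged 2 months, and each library pooled 2 to 3 mice of 1 genotype in 1 of 2 batches, so each genotype had 2 libraries. Cγ1Cre acts in activated B cells, so CD8 T cells are not the cells it targets, and the other 4 libraries held sorted YFP+ cells. The labels call the sorted cells splenocytes, and the protocol names lymph nodes as harvested too. The question behind the comparison was how T cells that share the spleen with eIF3e-deficient B cells differ from those of control mice.

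Naive CD8 T cells leave the thymus, circulate through spleen and lymph nodes by way of the homing receptor Ccr7, and are held quiescent by IL-7 and weak self-antigen signals. Cytokines such as IL-4 and IL-15, or homeostatic proliferation, can turn them into memory-like cells without foreign antigen. In those cells the T-box factors Eomes and T-bet (Tbx21) bind promoters of cytotoxic genes and of Il2rb.

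The members held the markers that chose them, which is a description and not a finding. Summed over members and scaled by library (CPM, UMIs of a gene scaled to the same total in every library, with TMM factors of 0.957 to 1.05), Cd8b1 lay at 850 and 1145 CPM in the controls and 829 and 1042 CPM in cKO. Lef1, the transcription factor of naive T cells, lay at 1435 and 1142 against 1136 and 756 CPM, and Ccr7 at 288 and 409 against 352 and 304 CPM. Cd4 was at 0 by rule and Gzmk had 1 UMI in all members. Il2rb, the receptor chain shared by IL-2 and IL-15, was detected in 30.9% and 22.8% of control and 34.2% and 47.6% of cKO members, and Ccl5 in 4.76% and 7.04% against 1.34% and 2.41%. Members had a median of 6438 to 7882 UMIs a cell, and their summed counts ran from 2781547 UMIs (cKO total 2) to 6509010 UMIs (control total 1).

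At the edges of the rule, 25 members had exactly 2 Cd3 UMIs and 10 otherwise qualifying cells had 1. There were 34 members with 1 Lef1 or Ccr7 UMI and 16 cells just outside with none, and 106 members with 1 Cd8a or Cd8b1 UMI against 937 cells with none. For the B cell genes 528 members had 1 UMI and 93 cells just outside had 2, and 153 cells were outside with 1 Cd4 UMI. The memory genes were the edge that held most cells. 1093 members had 1 of the 5 detected (349 and 307 in control, 221 and 216 in cKO), and 628 cells just outside had 2 (105 and 131 in control, 193 and 199 in cKO).

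Naive CD8 T cells made up a smaller share of the sorted cells in both cKO libraries than in either control. They were 8.56% (exact binomial 95% interval 8.01 to 9.14) and 7.49% (7.02 to 7.99) of all cells in control total 1 and 2, and 4.28% (3.90 to 4.68) and 3.14% (2.81 to 3.49) in cKO total 1 and 2. The groups did not overlap, and the means were 8.03% ± 0.756 and 3.71% ± 0.805 (SD, n = 2), a ratio of 0.462. The difference was -4.29 percentage points within batch 1 and -4.35 within batch 2. An exact two-sided permutation test gave p = 0.333, the smallest that 2 libraries against 2 can give. A count model over 6 cell classes (edgeR quasi-likelihood, Benjamini-Hochberg) gave a log2 change of -1.11 with an adjusted p of 0.0018 for this class. The other class past the threshold was CD4 T cells outside the naive gate, with a log2 change of 1.65 (adjusted p = 0.00119).

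**Figure D1:**
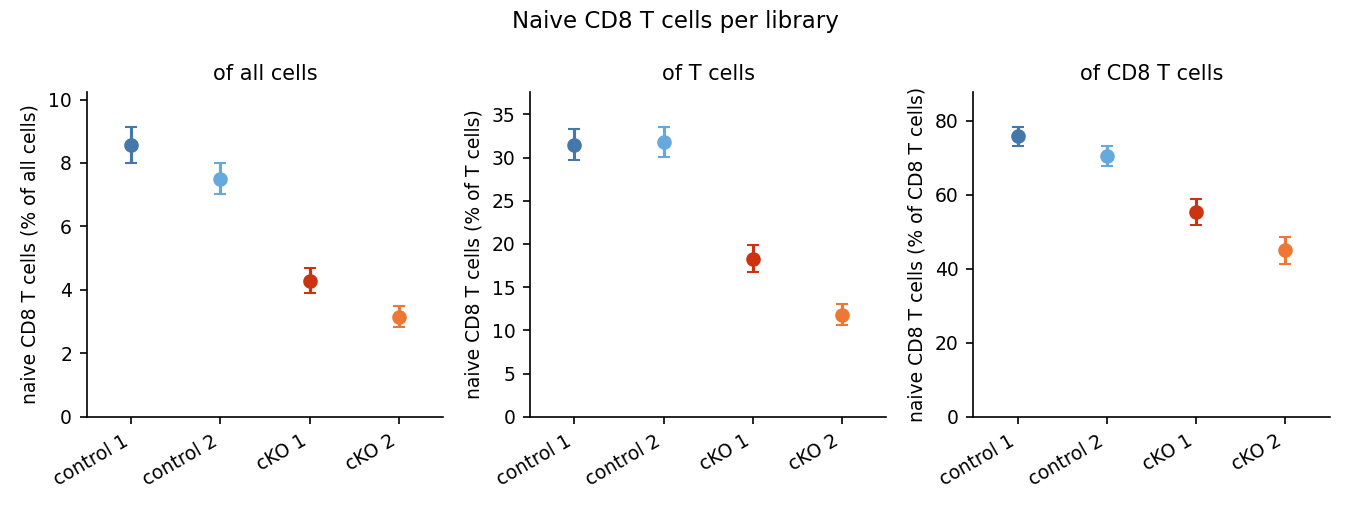
Naive CD8 T cells per library as a percentage of all cells (left), of T cells (middle) and of CD8 T cells (right), with exact binomial 95% intervals that cover counting error only. In each panel both cKO libraries lie below both controls, for example 4.28% and 3.14% against 8.56% and 7.49% of all cells.

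The naive part of the CD8 T cells was smaller too. Members were 75.8% and 70.5% of CD8 T cells in the controls and 55.4% and 45.0% in cKO, means of 73.2% ± 3.76 and 50.2% ± 7.35 (SD, n = 2; exact permutation p = 0.333). The difference was -20.5 points within batch 1 and -25.5 within batch 2. The rule needs memory genes to go undetected, so it depends on depth. With every cell thinned to 2000 UMIs before the rule was applied the shares were 84.8% and 81.2% in control and 77.6% and 62.2% in cKO, a difference of -13.1 points. Of all T cells, members were 31.5% and 31.8% in control and 18.3% and 11.8% in cKO. Memory-like CD8 T cells, taken by the same gate with 2 or more memory genes and no condition on Lef1 and Ccr7, were 2.91% ± 0.288 of all cells in control and 3.58% ± 0.263 in cKO (n = 2, exact permutation p = 0.333). Naive CD4 T cells were 7.11% ± 1.85 and 6.27% ± 0.432 of all cells (exact permutation p = 1).

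Some genes set the members apart from both other T cell types in every library, as a description, since the gate used the cells' own values. They were 1700062C10Rik, Gm43698, Gria3, Fam241a, Actn2, Ccr9, Tgtp2, Slc12a7, Usp28 and Cd226. Ccr9, the receptor for the gut and thymic chemokine Ccl25, lay at 118 and 75.1 CPM (of all UMIs, unscaled) in control members and 86.5 and 90.2 CPM in cKO members, against 2.20 to 4.43 CPM in naive CD4 T cells and 13.97 to 58.2 CPM in memory-like CD8 T cells. Cd226, an activating receptor for nectin-family ligands, lay at 177 to 322 CPM in members, 45.7 to 124 CPM in naive CD4 and 128 to 241 CPM in memory-like cells.

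Between genotypes, 6 genes rose in cKO naive CD8 T cells and none fell, by edgeR's quasi-likelihood test on UMIs summed per library with Benjamini-Hochberg adjustment over 10408 genes (0.0576% called). Before adjustment 230 were higher and 161 lower at p under 0.05. DESeq2 called 27 higher and 7 lower. Of the 6, Samd3, Ifngas1, Tspan9, Efna5 and 1700016L21Rik are given below with Eomes, which missed the threshold in this fit and passed it in others. Levels are TMM-scaled CPM, and 4 values in a row are for controls 1 and 2 and then for cKO libraries 1 and 2. Where pairs of values are set against each other, the control pair comes before the cKO pair. A summed level cannot tell a few cells with much RNA from many with a little, so cell shares follow.

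Samd3, a protein with a sterile alpha motif, is on chromosome 10 at 26229707 to 26272172 (GRCm38, plus strand). Its level was 4.24, 5.07, 55.1 and 72.8 CPM. Both cKO libraries were above both controls, a log2 fold change of 3.66 ± 0.30 (SE; adjusted p = 0.00667).

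Ifngas1 is a long noncoding RNA beside the interferon gamma gene, known for favouring Ifng transcription in CD8 T cells. It lies on chromosome 10 at 118502035 to 118556525 on the minus strand, and Ifng at 118441046 to 118445892 on the plus strand. Ifngas1 was at 10.4, 8.15, 83.1 and 107 CPM, with the groups apart and a log2 fold change of 3.29 ± 0.29 (adjusted p = 0.0077). Ifng itself had 1 UMI in the control members, and 3 and 11 cKO members of total 1 and 2 had a UMI of it.

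Tspan9, a tetraspanin that organises membrane proteins, is on chromosome 6 at 127961396 to 128143594 on the minus strand. Its level was 9.22, 6.88, 70.4 and 105 CPM, a log2 fold change of 3.37 ± 0.32 (adjusted p = 0.00861). The lower cKO library was far above the higher control.

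Efna5 encodes ephrin-A5, a membrane-anchored ligand of Eph receptors, and lies on chromosome 17 at 62604184 to 62881317 on the minus strand. It was at 0.146, 0, 31.8 and 130 CPM (adjusted p = 0.0161). The control members held 1 UMI of it and the cKO members 447, a ratio of 910 per UMI with a counting interval of 163 to 36029. The fitted log2 value of 7.29 ± 1.04 depends on the prior count. 1700016L21Rik, an RNA annotated as antisense on chromosome 1 at 80445932 to 80479867 on the plus strand, overlaps Gm45261. Its level was 3.07, 1.81, 21.8 and 33.2 CPM, a log2 fold change of 3.25 ± 0.38 (adjusted p = 0.0161). The sources used here do not give whether reads were counted by strand, so reads of Gm45261 and 1700016L21Rik cannot be told apart.

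Eomes, the T-box factor named above, is on chromosome 9 at 118478212 to 118486132 on the plus strand, and Gm33460 overlaps it on the other strand. Its level was 17.3, 22.3, 88.7 and 166 CPM. The groups did not overlap, and the log2 fold change was 2.66 ± 0.36 with an adjusted p of 0.0696. With batch as a block the adjusted p was 3.16e-49, and by DESeq2 it was 2.58e-09. Over the 16 alternatives it ran from 3.16e-49 to 0.106 and passed 0.05 in 13. Among members with none of the 5 memory genes detected, where Efna5 (adjusted p = 0.235) and Samd3 (adjusted p = 0.151) were no longer called, Eomes was called (adjusted p = 0.00333).

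The stretches of 250 bases before the starts of Samd3 and Ifngas1 are shown because T-box factors bind sequences around GGTGTG and Eomes is such a factor. They are from RefSeq on GRCm38.p6, at chr10:26229457-26229706 on the plus strand for Samd3 and chr10:118556526-118556775 on the minus strand for Ifngas1, read 5′ to 3′ along the gene. Capitals mark the core on either strand (GGTGTG or CACACC).
Samd3: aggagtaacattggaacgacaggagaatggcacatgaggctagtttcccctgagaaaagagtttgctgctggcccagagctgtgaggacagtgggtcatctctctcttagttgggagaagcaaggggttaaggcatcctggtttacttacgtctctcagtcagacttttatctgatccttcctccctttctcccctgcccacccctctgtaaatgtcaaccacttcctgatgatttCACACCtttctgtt
Ifngas1: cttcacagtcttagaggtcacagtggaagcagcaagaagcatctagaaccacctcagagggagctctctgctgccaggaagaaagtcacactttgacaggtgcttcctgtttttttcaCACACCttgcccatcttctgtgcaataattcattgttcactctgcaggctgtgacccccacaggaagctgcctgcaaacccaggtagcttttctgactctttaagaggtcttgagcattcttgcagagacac
The core was in 3 of the 6 promoters searched (Samd3, Tspan9 and Ifngas1) and in 16.3% of the 32851 promoters of this length. The longer T-box motif AGGTGTGA, which contains the core, was in the Samd3 stretch (as TCACACCT) and in 1.1202% of all promoters. The STAT6 motif, TTC and GAA set 4 bases apart, was in none of the 6 and in 5.85% of all. The STAT5 motif, the same letters 3 bases apart, was in the Tspan9 stretch and in 7.02% of all. Both STAT motifs read the same on either strand. These are matches of letters and say nothing of binding.

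The genes differed in how many members held a UMI of them. Tspan9 had a UMI in 52 and 36 control and 140 and 151 cKO members, Eomes in 74 and 77 against 149 and 160, and Ifngas1 in 38 and 34 against 136 and 138. Efna5 had one in 1 and 0 control and 33 and 103 cKO members. The 5 cells with the most UMIs held 10.9% to 42.2% of the cKO UMIs of a gene, the highest share being that of Efna5 in cKO total 1.

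To set libraries of unequal depth side by side, each cell was thinned to 2000 UMIs, which left out 6 and 8 control and 2 and 0 cKO members. Samd3 had a UMI in 13 and 25 control and 84 and 93 cKO members before thinning. It was then seen in 0.246% and 1.05% of control and 6.50% and 12.05% of cKO members. Efna5 was seen in no thinned control member, which allows shares of cells with a UMI at this depth, not of cells expressing it, of up to 0.369% and 0.35%, and in 3.36% and 14.8% of cKO members. B cells of the same libraries, which should lack these genes, showed none of the 6 in over 0.333% of cells. At least 2 of these 5 called genes and Eomes were seen in the same cell in 0.246% and 0.7% of control and 10.99% and 25% of cKO members, and none of the 6 in 92.4% and 92.1% against 60.3% and 44.9%. In thinned naive CD4 T cells at least 2 were seen in 0.125% and 0.149% of control and 4.18% and 8.23% of cKO cells, and in memory-like CD8 T cells in 9.27% and 9.72% against 23.9% and 32.6%.

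**Figure D2:**
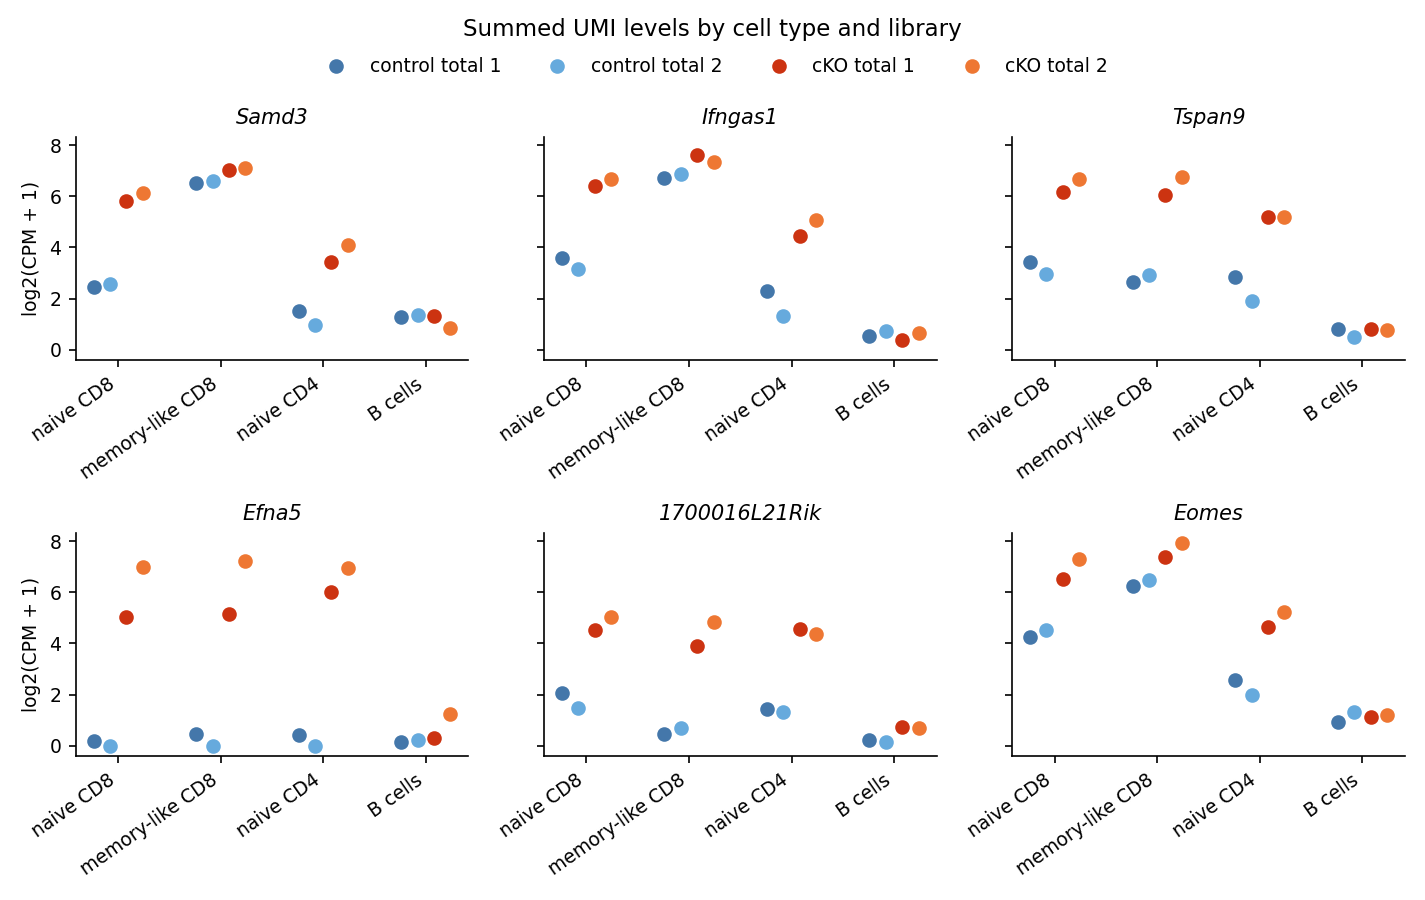
Levels of 5 of the called genes and of Eomes as log2(CPM + 1) of summed UMIs, in naive CD8, memory-like CD8 and naive CD4 T cells and B cells, 1 point per total library. Tspan9, Efna5 and 1700016L21Rik are low in the control sums of each T cell type shown and higher in every cKO sum of these types. Samd3 and Ifngas1 are already high in control memory-like cells (89.9 and 95.2 CPM of all UMIs for Samd3).

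The genes fell into 2 patterns over the T cell types, given on the scale of the joint fit of the cell types named. Samd3 and Ifngas1 were already high in control memory-like CD8 T cells, and Eomes likewise. Samd3 was at 86.7 and 99.5 CPM there in control and 128 and 143 CPM in cKO. Its genotype effect was larger in naive than in memory-like cells by 3.09 ± 0.19 on the log2 scale (edgeR interaction with library as a factor, adjusted p = 1.54e-09). For Ifngas1 the memory-like levels were 100 and 122 CPM in control and 189 and 166 CPM in cKO, and the effect was larger in naive cells by 2.59 ± 0.24 (adjusted p = 0.000426). Eomes was at 72.0 and 92.6 CPM in control and 162 and 248 CPM in cKO memory-like cells, with an effect larger in naive cells by 1.32 ± 0.14 (adjusted p = 1.66e-05). The 2 cell types were split by the UMIs of the memory genes, so these interactions are a description. In cKO, Samd3 was at 93.9 and 87.8 CPM of all UMIs in members with 1 memory gene. In cells just outside, with 2, it was at 97.3 and 117 CPM. How far the interactions depend on where the gate cuts was not tested.

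Tspan9 (edgeR adjusted p = 0.00984) and 1700016L21Rik (adjusted p = 0.0319) differed by genotype in memory-like cells as well, and Efna5 missed the threshold there (adjusted p = 0.0726). Tspan9 was at 5.02 and 6.94 CPM in control and 63.1 and 109 CPM in cKO memory-like cells, and Efna5 at 0.358 and 0 against 34.2 and 152 CPM. There 1700016L21Rik was at 0.358 and 0.661 against 13.7 and 28.3 CPM. For these 3 the difference between the 2 cell types' effects missed the threshold (adjusted p 0.501 to 0.961), and its standard error ran from 0.30 for Tspan9 to 1.46 for Efna5 on the log2 scale.

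Over all 10617 genes 83 effects differed between naive and memory-like CD8 T cells (0.782%), 70 of them higher in naive cells. Dropping the library term left none past the threshold and 114 under 0.05 before adjustment. DESeq2 called 79 of the 1376 genes it gave an adjusted p for. Among the largest on the naive side were Ifng (2.77 ± 0.79, adjusted p = 0.00173), Gzmm, a granule protease (2.39 ± 0.42, adjusted p = 0.0081), and Tbx21 (2.22 ± 0.38, adjusted p = 0.00163). Ifng had 1 and 0 UMIs in control and 4 and 23 in cKO naive cells, and was not tested within naive cells alone. In memory-like cells Ifng was at 11.8 and 20.5 against 5.06 and 38.6 CPM, lower in cKO in batch 1 and higher in batch 2. With batch in place of the library term Tbx21 passed the threshold (adjusted p = 0.0328), and Ifng (0.964) and Gzmm (0.999) did not. Tbx21 was at 1.90 and 2.36 CPM in control and 4.36 and 8.24 CPM in cKO naive cells, and at 47.0 and 53.9 against 22.6 and 32.5 CPM in memory-like cells. Tbx21 was thus higher in cKO than in control in both naive libraries and lower in both memory-like libraries. The naive values rest on 13 and 13 UMIs in control and 14 and 22 in cKO. In memory-like cells alone its change missed the threshold (edgeR adjusted p = 0.589). On the other side were Car2, the inhibitory receptor Lag3, the stress-response gene Ier3, 1700062C10Rik and Idi1, an enzyme of isoprenoid synthesis. Lag3 was at 1.02 and 3.81 against 1.56 and 0.375 CPM in naive cells and at 1.43 and 5.95 against 11.9 and 18.3 CPM in memory-like cells (-2.82 ± 0.73, adjusted p = 0.0356).

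Naive CD4 T cells were taken by the same gate with Cd4 in place of the Cd8 genes. In the joint fit, 642 of 11234 genotype effects differed between the 2 naive types (5.71%), 280 higher in CD8 and 362 lower. This fit took library as a factor. Dropping that factor left none past the threshold and 485 under 0.05 before adjustment. DESeq2 called 232 of 9728. Efna5, Samd3, Tspan9, Ifngas1, 1700016L21Rik and Eomes missed the threshold (adjusted p 0.458 to 0.965). For Eomes the difference was -0.01 ± 0.28, with 4.86 and 3.03 CPM in control and 23.02 and 34.7 CPM in cKO naive CD4 T cells, and for Efna5 the standard error of 3.95 leaves its difference unmeasured.

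Genes with a higher log2 fold change in naive CD8 than in naive CD4 T cells included Gzmm, Gzma, Fasl and S100a8. For S100a8 the fitted log2 fold change was -0.40 in naive CD8 and -2.71 in naive CD4 T cells. Fasl, the death ligand, was at 2.55 and 4.09 against 9.89 and 24.4 CPM in naive CD8 and at 32.7 and 40.9 against 24.2 and 25.3 CPM in naive CD4 T cells (2.75 ± 0.38, adjusted p = 0.000394). With batch in place of the library term Fasl passed the threshold (adjusted p = 0.0012), and Gzmm (0.201), Gzma (0.516) and S100a8 (0.877) did not. S100a8, a neutrophil gene, was at 56.5 CPM in the naive CD4 T cells of control total 1 and at or below 8.69 CPM in the other 7 sums of naive CD4 and naive CD8 T cells.

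On the other side were Plekhg3, Slc24a3, the costimulatory ligand Cd80, the G protein regulator Rgs16 and the interleukin 1 receptor Il1r1. In naive CD8 T cells none of these 5 exceeded 4.04 CPM in any library. In cKO naive CD4 T cells they lay between 5.29 and 81.9 CPM, for example Slc24a3 at 2.68 and 1.77 against 55.3 and 81.9 CPM (-4.59 ± 0.66, adjusted p = 0.000108). With batch in place of the library term Cd80 (adjusted p = 0.15) and Il1r1 (0.0821) missed the threshold. Il4, the cytokine, had 93.7 and 273 CPM of all UMIs in cKO naive CD4 T cells. In naive CD8 T cells it had no UMI in control and 22 in cKO, at least 14.9-fold higher at a floor of 3 counts over the group. That is 2.82 and 4.67 CPM of all UMIs in cKO. B cells of the same libraries were at 0.153 and 0.199 CPM in control and 0.608 and 1.54 CPM in cKO. The part of RNA from other cells in the naive CD8 UMIs of Il4 was not tested. The naive CD4 gate holds any CD4 T cell with a Lef1 or Ccr7 UMI and fewer than 2 memory genes, so helper subsets are not kept out of it.

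**Figure D3:**
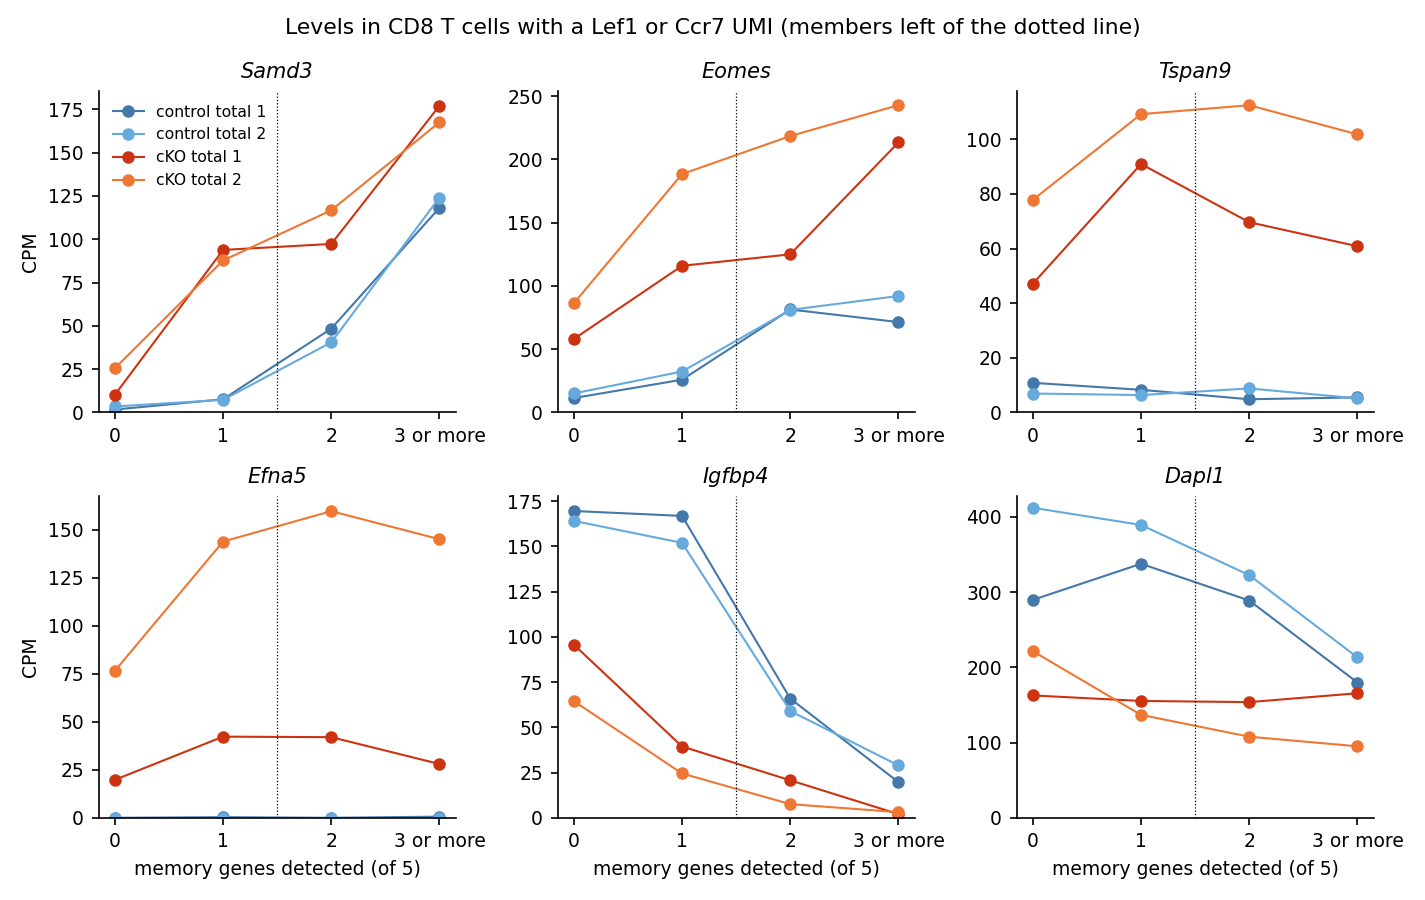
Levels (CPM of all UMIs) of 6 genes in CD8 T cells with a Lef1 or Ccr7 UMI, by how many of the 5 memory genes were detected, 1 line per total library and the members left of the dotted line. Samd3 is higher where more memory genes were detected in all 4 libraries, and so is Eomes except in control total 1 (81.4 CPM with 2 and 71.4 CPM with 3 or more), whereas Tspan9 stays at or under 10.9 CPM in control cells of every class.

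In the control libraries the 0 or 1 memory gene that a member may show sorts the genes in the same way. In members with 0 memory genes Samd3 was at 1.71 and 3.47 CPM (of all UMIs) in control and 10.2 and 25.5 CPM in cKO, and in members with 1 it was at 7.64 and 7.30 against 93.9 and 87.8 CPM. Just outside, with 2 memory genes, the levels were 48.4 and 40.5 against 97.3 and 117 CPM. Eomes ran from 11.4 and 15.04 against 58.1 and 86.3 CPM with 0 to 25.9 and 32.4 against 116 and 188 CPM with 1. In each class of members both cKO libraries were above both controls for Samd3 and for Eomes.

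Tspan9 was at 10.9 and 6.94 CPM in control and 47.1 and 77.8 CPM in cKO members with 0 memory genes, and at 5.54 and 5.17 against 60.9 and 102 CPM in cells with 3 or more, outside the rule. Its control level thus did not climb with memory genes. Efna5 was at 0 and 0 against 19.8 and 76.6 CPM in members with 0. In cKO members the levels of both genes did climb. With 1 memory gene Tspan9 was at 91.0 and 109 CPM and Efna5 at 42.3 and 144 CPM there. Igfbp4, an insulin-like growth factor binding protein of naive T cells, was at 169 and 164 against 95.6 and 64.5 CPM with 0 and at 167 and 152 against 39.4 and 24.5 CPM with 1. These classes were cut by the same UMIs as the rule, so they are a description.

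The batches pair the libraries, and the fit with batch as a block called 696 genes, 341 higher (3.28%) and 355 lower (3.41%) in cKO. It leaves 1 residual degree of freedom per gene and leans on a spread shared by all genes, with a median prior of 339 degrees of freedom against 6.79 without the block. Its p-values were far smaller than those of the fit without it, and the parts of the prior and of the batch term in that were not told apart. The 6 genes above were among the 696. Without any fit, both cKO libraries lay above both controls for 1339 genes (12.9%) and below for 1334 (12.8%).

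**Figure D4:**
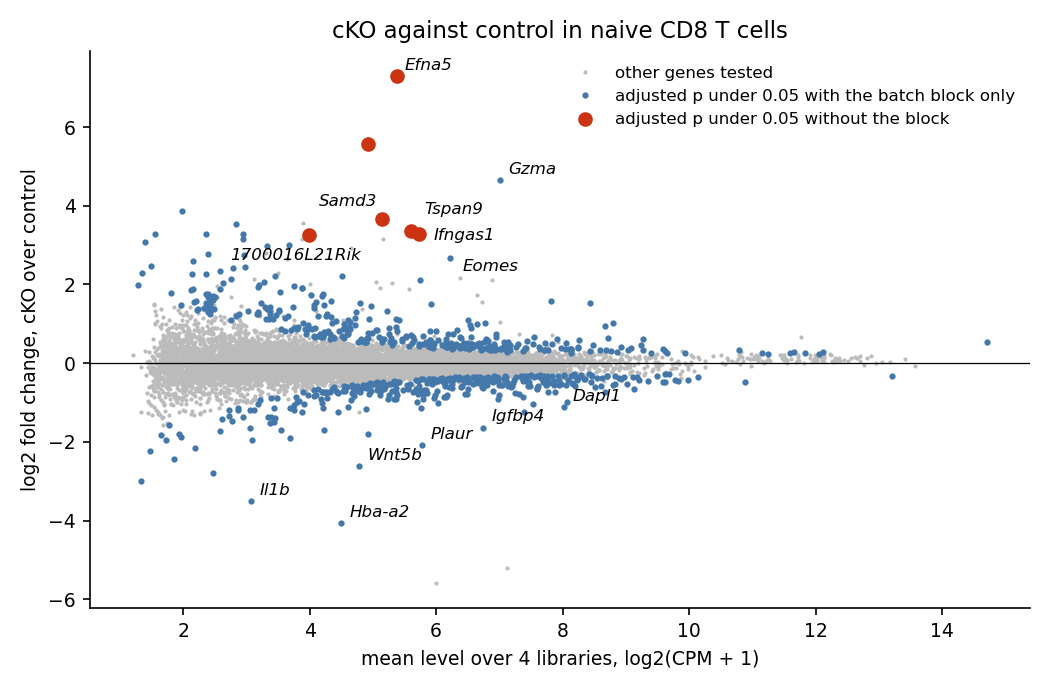
Log2 fold change (cKO over control, fit without the block) against mean level as log2(CPM + 1) over the 4 libraries, 1 point per gene tested in naive CD8 T cells. The 6 genes called without the block all lie above 3, while 341 genes higher and 355 lower in the fit with the block (the 6 included) lie on both sides of 0.

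Among the largest rises called by the paired fit, beyond the 6 genes above, were those of Gzma, Map2, Tdgf1, Dyrk4, Maf and Ccr2. Maf, a transcription factor of effector and helper T cells, was at 1.90 and 0.906 against 9.03 and 15.5 CPM (paired adjusted p = 1.23e-08). Ccr2, a receptor for inflammatory chemokines, was at 2.34 and 2.17 against 5.92 and 36.6 CPM (paired adjusted p = 0.000308). Gzma, a granule protease of NK and cytotoxic T cells, was at 1.90 and 16.8 against 21.8 and 472 CPM, so its cKO level rested on cKO total 2. Map2, Tdgf1 and Dyrk4 were each at 2.49 to 3.74 CPM in cKO total 1 and 22.3 to 29.0 CPM in cKO total 2.

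The summed level of 12 NK cell markers moved with this group, at 71.4 and 111 CPM in control and 165 and 713 CPM in cKO members. Gzma and Eomes are in that list, and none of the 12 was at 0 in all libraries. Of its members, Ncr1 and Klrb1c were at most 1.24 and 3.36 CPM of all UMIs in any library. The paired fit called Gzma, Eomes and Klra8 higher and Tyrobp lower. Klra8, an NK receptor of the list, was at 0.585 and 10.3 against 5.92 and 37.7 CPM (paired adjusted p = 8.49e-09), with its UMIs in 4 and 7 control and 2 and 12 cKO members, and its groups overlapped. Without the cells that had a UMI of an NK marker other than Eomes and Tyrobp, a choice made after seeing the data, the 6 genes and Eomes were called (edgeR, Eomes adjusted p = 0.00756), in a count of 13. That choice kept 603 of 819 and 647 of 866 control members, and 316 of 448 and 173 of 332 cKO members. The part of other cells in Gzma was not tested.

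Among the largest falls called by the paired fit were those of Hba-a2, Il1b, Wnt5b, Plaur, Gm30948, Car2, Ncf1, Plekha6, Igfbp4, Cd24a and Fam71b. Plaur, the urokinase receptor, was at 92.4 and 83.5 in control against 24.6 and 15.8 CPM (log2 fold change -2.09 ± 0.30, adjusted p = 0.074, paired 1.38e-31). B cells of the same libraries held more of it, 527 and 628 against 249 and 229 CPM of all UMIs. In naive CD4 T cells its log2 fold change was -2.77 (edgeR adjusted p = 0.0161). Wnt5b, a secreted Wnt ligand, was at 53.5 and 38.6 against 9.96 and 4.15 CPM (adjusted p = 0.0897, paired 2.14e-27). Igfbp4 was at 160 and 163 against 64.8 and 38.1 CPM (adjusted p = 0.228, paired 2.25e-13). Each of these 3 was lower in both cKO libraries than in either control.

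Ncf1, a subunit of the phagocyte oxidase, was at 24.4 and 30.4 against 9.03 and 7.17 CPM (paired adjusted p = 2.44e-10). Plekha6, Gm30948 and Fam71b lay between 8.88 and 15.5 CPM in control and between 1.13 and 4.90 CPM in cKO. Il1b, the inflammatory cytokine, was at 15.2 and 12.9 against 1.56 and 0 CPM, with 175 UMIs against 5, and its direction turned (log2 1.08) when the rule was applied to thinned cells.

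Hba-a2, Car2 and Cd24a, genes of red cell precursors among others, were high in control total 2 alone. Hba-a2 was at 0.439 and 81.5 against 0.311 and 3.77 CPM, Car2 at 5.41 and 32.4 against 2.80 and 6.79 CPM, and Cd24a at 5.85 and 27.2 against 3.11 and 6.41 CPM. The 10 erythroid and platelet markers summed to 13.4, 1085, 10.97 and 24.1 CPM. In all 3 genes control total 1 was below cKO total 2.

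Read by gene list, the 24 lists held none of the 6 called genes, and no list member passed without the block. Counts below are of the paired fit, and medians are log2 fold changes of the fit without the block, where the median of all 10408 genes was 0.00453. Of all these genes the paired fit called 3.28% higher and 3.41% lower, and 12.9% had both cKO libraries above both controls, against which the counts of each list are to be read.

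Genes of naive identity and quiescence were lower more often than higher, with 8 of 24 lower and 1 higher (median -0.16). The 8 were Igfbp4, Dapl1, Actn1, S1pr1, Btg1, Bach2, Foxp1 and Il7r, and the 1 was Nsg2. Dapl1, which marks resting T cells, was at 297 and 412 against 158 and 170 CPM (log2 fold change -1.11 ± 0.30, paired adjusted p = 1.81e-19). S1pr1, the receptor by which T cells leave lymphoid tissue, was at 339 and 323 against 267 and 202 CPM (paired adjusted p = 6e-05). Il7r, the IL-7 receptor chain, was at 858 and 857 against 712 and 712 CPM (paired adjusted p = 0.0345), and Ets1, which has among the highest levels, had a log2 fold change of 0.01 ± 0.30.

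In thinned cells Dapl1 was seen in 35.9% and 41.6% of control and 21.5% and 23.8% of cKO members, against at most 0.533% of B cells (unthinned 59.2% and 62.0% against 44.4% and 42.8% of members).

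Memory and effector genes moved in both directions, 11 of 28 tested higher and 5 lower of 36 listed (median 0.25). Among those higher were Gzma, Ccr2, Eomes, Fasl, Tbx21, Ccl4, Hopx, Ctsw, Sidt1 and Nkg7. Lower were Gzmb, Klrd1, Cd7, Id2 and Itga4. Klrd1, the CD94 chain of NK receptors, was at 222 and 248 against 116 and 81.1 CPM (paired adjusted p = 2.95e-12), and Id2, an inhibitor of E proteins, at 145 and 253 against 102 and 127 CPM (paired adjusted p = 1.97e-08). The list thus did not move as 1 block: Eomes and Klrd1 went in opposite directions. Klrd1 had a UMI in 73.1% and 66.4% of control members, so most control members already held it.

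Of the genes of the IL-4 receptor, STAT6 and their response, 4 of 11 tested of 13 listed were higher and none lower (median 0.32). They were Cish, Il4ra, Socs1 and Socs3. Il4ra, the receptor chain that IL-4 itself induces, was at 70.9 and 58.7 against 111 and 129 CPM (log2 fold change 0.89 ± 0.27, adjusted p = 0.738, paired 2.9e-10), and was seen in 13.5% and 9.6% of control and 18.8% and 21.4% of cKO thinned members (unthinned 38.6% and 28.6% against 48.0% and 56.3%). Socs1, a feedback inhibitor of cytokine receptors, was at 42.6 and 48.9 against 66.01 and 95.04 CPM (paired adjusted p = 3.1e-07). Cish, another feedback inhibitor, was at 3.51 and 6.16 against 5.60 and 34.7 CPM, so cKO total 1 did not exceed control total 2. Jak1 had a log2 fold change of 0.02 ± 0.29. Among 18 tested of 19 other cytokine receptors and transducers 5 were lower (Il18r1, Il6st, Il6ra, Ifngr2 and Tgfbr2) and Stat4 was higher, with Il18r1, the IL-18 receptor, at 80.9 and 91.3 against 47.0 and 38.1 CPM (paired adjusted p = 1.98e-10).

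Interferon-stimulated genes were higher in cKO more often than lower. Of 41 tested of 42 listed, 15 were higher and 1 lower, 35 had a log2 fold change above 0, and 22 had both cKO libraries above both controls (median 0.38). Ifit3, an antiviral effector, was at 10.53 and 10.9 against 29.9 and 22.3 CPM (log2 fold change 1.26 ± 0.28, adjusted p = 0.294, paired 1.24e-06). Isg15, a ubiquitin-like modifier, was at 24.6 and 31.3 against 55.7 and 49.8 CPM (paired adjusted p = 3.49e-07), and Usp18, which removes it, at 11.3 and 15.03 against 26.2 and 29.4 CPM (paired adjusted p = 1.42e-05). The member that was lower was Samhd1, a dNTP hydrolase, at 271 and 273 against 186 and 141 CPM. Ifit3 was seen in few thinned members, 1.2% and 1.6% in control and 3.8% and 3.6% in cKO (unthinned 4.88% and 4.85% against 8.26% and 7.53%), against 0.9% to 1.2% of B cells. None of 20 MHC I presentation genes was called in either direction (median 0.08).

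**Figure D5:**
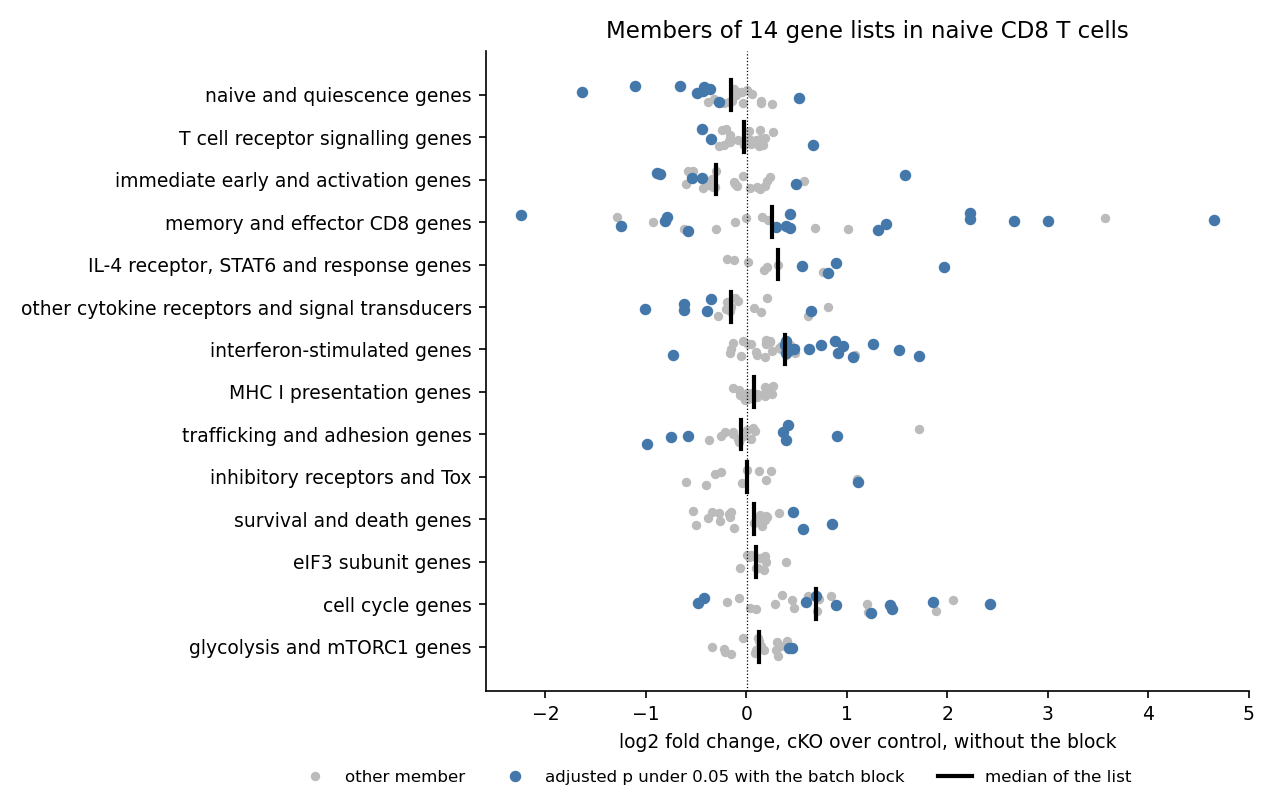
Log2 fold changes (cKO over control, fit without the block) of the tested members of 14 gene lists, 1 point per gene, blue where the adjusted p with the batch block was under 0.05, with a bar at each median and a dotted line at the median of all genes. Interferon-stimulated genes (median 0.38) and cell cycle genes (median 0.70) lie furthest to the right, and immediate early genes (median -0.30) furthest to the left.

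Genes of the T cell receptor pathway stayed near the median of all genes, with Rasgrp1 higher and Tespa1 and Prkcq lower of 23 (median -0.03). Rasgrp1, which links the receptor to Ras, was at 155 and 133 against 229 and 228 CPM (paired adjusted p = 8.55e-08). Of 27 immediate early and activation genes Tnfrsf4 and Dusp5 were higher and Jun, Fos, Dusp2 and Nfkbia lower (median -0.30). Fos was at 137 and 289 against 104 and 130 CPM (paired adjusted p = 0.000296). Jun and Fos are also in the list of genes that rise when tissue is dissociated, of which 5 of 15 tested of 18 were lower and none higher. That list summed to 3416 and 4627 CPM in control and 3105 and 4130 CPM in cKO, lower in cKO within each batch and higher in batch 2 in both genotypes. Cd69, an early activation antigen, was seen in 29.8% and 40.2% of control and 24.9% and 23.8% of cKO thinned members (unthinned 61.2% and 67.6% against 54.5% and 53.9%).

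Of 26 cell cycle genes 8 were higher and 2 lower (median 0.70). Mki67, a marker of dividing cells, was at 13.2 and 19.0 against 20.2 and 69.0 CPM. It had a UMI in 15 and 15 control and 7 and 21 cKO members, and 5 cells held 83.6% to 96.9% of its UMIs in each library, so a handful of cells carried its values. Of 21 survival and death genes Bcl2l1, Bcl2l11 and Bcl2 were higher (median 0.08). Bcl2l11, which encodes the death inducer Bim, was at 114 and 66.1 against 146 and 121 CPM, and Bcl2, its antagonist, at 627 and 386 against 712 and 689 CPM. Of 19 glycolysis and mTORC1 genes tested of 20, Gapdh and Pfkp were higher (median 0.13).

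Trafficking genes split, with Cxcr5, Gpr18, Itgb2 and Gpr183 higher and Itgae, Cd9 and Itgb7 lower of 20 (median -0.06). Itgae, the CD103 integrin chain that binds E-cadherin, was at 81.8 and 54.3 against 41.7 and 26.0 CPM (paired adjusted p = 2.92e-09) and was seen in 14.5% and 10.3% of control and 6.5% and 3.9% of cKO thinned members (unthinned 37.4% and 24.6% against 19.0% and 10.54%). Its partner chain Itgb7 was at 189 and 227 against 147 and 130 CPM (paired adjusted p = 1.49e-05). Of 11 inhibitory receptor genes tested of 13, Tigit was higher, at 4.83 and 7.06 against 9.03 and 17.7 CPM (paired adjusted p = 0.0101). Tox and Cd96, with the highest levels in that list, had log2 fold changes of -0.25 ± 0.39 and -0.04 ± 0.27.

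Eif3e, the deleted gene, did not differ detectably in these cells, which the deletion does not target, so it is no check of the deletion. Its level was 306, 375, 309 and 406 CPM, a log2 fold change of 0.07 ± 0.30 (adjusted p = 0.999). None of 13 eIF3 subunit genes tested of 14 was called in either fit (median 0.10). A list of 21 genes taken from earlier results on B cell classes of these data had 7 tested in members, of which Car2 was lower.

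The remaining lists hold markers of other cells and of RNA quality. B cell markers summed to 944 and 1092 CPM in control and 805 and 1018 CPM in cKO members, with Cr2 and Ly6d lower among 17. Myeloid markers summed to 247 and 258 against 190 and 376 CPM, with Tyrobp lower among 9 tested of 16. γδ and CD4 T cell markers summed to 271 and 226 against 328 and 258 CPM, with Cxcr5 and Icos higher among 7 tested of 13. Of 86 ribosomal protein genes tested of 91, 7 were higher (median 0.13), and they took 26.2% and 33.1% of control and 28.6% and 34.1% of cKO UMIs. None of 13 mitochondrial genes was called. The 6 sex-linked genes summed to 369 and 246 CPM in control and 540 and 243 CPM in cKO members. They are Xist and Tsix with 4 genes of the Y chromosome, so the sum mixes genes of both sexes. Among the 4 of them tested, all of the Y chromosome, none had a log2 fold change above 0. Ddx3y was called lower, at 123 and 96.5 against 63.2 and 75.1 CPM. The sexes of the pooled mice are not in the labels, and a difference in sex between pools was not tested. Of 6 NK markers tested of 12, Gzma, Eomes and Klra8 were higher and Tyrobp lower, and of 4 erythroid and platelet markers tested of 10, Hba-a2 and Car2 were lower.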

How the data were processed

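Droplet 3′ single-cell RNA-seq (SeekOne DD kit) was deposited by the authors as matrices of raw UMI counts per gene and cell, 1 matrix for each of 8 libraries of pooled cells labelled as mouse spleen. Names of the aligner and annotation were not given in the sources used here. Builds named in the submitters' processing notes were GRCm38 and mm10. The authors' own filter was over 200 UMIs, over 100 genes and at most 10% mitochondrial UMIs, and they named no doublet step.

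Members and gene lists were chosen with earlier results of these data known, so list counts are descriptions. Groups came from the labels. The 4 total libraries were used, in 2 groups of 2, and the sorted YFP+ libraries only as an aside. No doublet caller was run, and an alternative left out members with UMIs of other cell types' markers or with over 2 times the median UMIs of their library's members. Between any 2 libraries 0.548% to 0.971% of the smaller library's cell barcodes were shared.

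UMIs were summed over members per library, since cells are not replicates, and tested with edgeR 4.0.16 (TMM, filterByExpr, robust quasi-likelihood F test, Benjamini-Hochberg adjustment, threshold 0.05, prior count 2 for fold changes) in R 4.3.3, with DESeq2 1.42.0 as an alternative. Adjusted p-values are from edgeR unless DESeq2 is named, and "paired" is the fit with batch as a block. The labels number the libraries by batch and do not say what a batch shared. Over 5876 genes of at least 20 CPM, libraries of the same number deviated together (r = 0.728). Interactions with naive CD4 or memory-like CD8 T cells kept library as a factor. Shares were compared by an exact two-sided permutation test. Each library is a pool of mice, so p-values of the fit without the block measure the spread between pools, in part as shared by all genes. That fit had 2 residual degrees of freedom and a median prior of 6.79. The permutation p-values of the shares cannot fall under 0.333 and do not measure that spread. P-values of the paired fit lean further on a spread shared by all genes. Those of the interactions leave out differences between pools that both cell types share. The 2 libraries of each group differed by more than sampling noise (chi-square per degree of freedom 33.6 for control and 16.8 for cKO).

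Named genes were those past the threshold with at least 10 CPM in either group (at most 12 per direction, 5 for interactions), without the 15 rule genes, immunoglobulin genes and T cell receptor segments. For lists, the members past the threshold, the 2 highest and the 2 with the smallest p could be named. Some genes that this rule takes are not reported here. The paired calls, Ifng and Il4 were named after their values were seen. Intervals and floors cover counting error only. The script was tested on simulated data with known changes. These had less spread between libraries than the real data and no batch effect, so they do not check the error rates here. Alternatives covered normalization, the low-count filter, the block and leaving out each library. They also covered the rule's conditions on the Cd8 genes, on Lef1 and Ccr7, on the memory genes and on mitochondrial UMIs. Thinning aside, only that on Lef1 and Ccr7 was also loosened. The conditions on Cd3, Cd4, the B cell genes and the number of genes were not varied on their own. Python 3.11.15 with numpy 2.4.6, scipy 1.17.1, pandas 2.3.3 and matplotlib 3.10.9 was used.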

Additional observations from a re-analysis of the deposited data

Results flagged for a closer look

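The genotype effect of the genes below differed between naive CD8 T cells and another T cell type by the edgeR interaction test, and they were among the largest each way for each type. Against naive CD4 T cells the log2 fold change in naive CD8 T cells was higher for Gzmm (by 3.44), Gzma (2.94), Fasl (2.75) and S100a8 (2.26). It was lower for Plekhg3 (-5.36), Slc24a3 (-4.59), Cd80 (-4.17), Rgs16 (-3.92) and Il1r1 (-3.91). Of these the Gzma value rests on cKO total 2 (484 CPM in naive CD8 T cells) and the S100a8 value on the naive CD4 T cells of control total 1 (56.5 CPM). With batch in place of the library term, Fasl (adjusted p = 0.0012), Plekhg3 (adjusted p = 0.000236), Slc24a3 (adjusted p = 0.0253) and Rgs16 (adjusted p = 0.0166) passed the threshold, and Gzmm, Gzma, S100a8, Cd80 and Il1r1 did not.

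Naive and memory-like CD8 T cells were split by the UMIs of the memory genes, so differences between them are a description. Against memory-like CD8 T cells the log2 fold change in naive CD8 T cells was higher for Samd3 (3.09), Ifng (2.77), Ifngas1 (2.59), Gzmm (2.39) and Tbx21 (2.22). It was lower for Car2 (-2.90), Lag3 (-2.82), Ier3 (-2.36), 1700062C10Rik (-1.76) and Idi1 (-1.33). The Ifng value rests on 1 and 0 UMIs in control and 4 and 23 in cKO naive CD8 T cells. With batch in place of the library term, Samd3 (adjusted p = 1.06e-06), Ifngas1 (adjusted p = 0.000723) and Tbx21 (adjusted p = 0.0328) passed the threshold and the other 7 did not.

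Cells that met the same rule in the sorted YFP+ libraries, which the comparisons above leave out, also carried some of these RNAs. There were 109 and 24 such cells in control YFP+ 1 and 2 and 74 and 5 in cKO YFP+ 1 and 2. Eomes was at 132 and 265 CPM of all UMIs in cKO against 25.7 and 11.1 CPM in control, Efna5 at 28.0 and 133 CPM against 0 and 0, Ifngas1 at 86.6 and 133 CPM against 13.6 and 0, and 1700016L21Rik at 10.2 and 88.4 CPM against 1.51 and 0. Samd3 (78.9 CPM) and Tspan9 (71.3 CPM) were higher in cKO YFP+ 1 than in control YFP+ 1 (1.51 and 6.04 CPM) and had no UMI in cKO YFP+ 2, where 0 counts allow up to 133 CPM. In cKO YFP+ 2 the values come from 5 cells and rest on 6 UMIs of Eomes in 1 cell, 3 of Efna5 in 1 cell, 3 of Ifngas1 and 2 of 1700016L21Rik, so only Eomes exceeds that limit. In control YFP+ 2 a count of 0 allows up to 33.3 CPM, above the 28.0 CPM of Efna5 in cKO YFP+ 1, and the Eomes value there is 1 UMI. No test was made. Why cells with a T cell profile were in the YFP+ sort was not tested.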

How the results depend on the processing

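Each group held 2 libraries, which limits every comparison. The count of changed genes in naive CD8 T cells, 6 here, was 34 by DESeq2, 137 without the low-count filter, 11 without the condition on Lef1 and Ccr7, 10 with the rule applied to cells thinned to 2000 UMIs, 13 without members that had a UMI of an NK marker (chosen after seeing the data), and 37 to 207 when 1 library was left out, where the lone library is assumed to vary like the others. With batch as a replicate block it was 696. All 6 genes were called in every one of these. They were also called under the other alternatives, except that Efna5 and Samd3 were not among members with no memory gene detected. Fewer residual degrees of freedom and a larger shared prior come with the block. The causes of the other changes were not tested.

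For the interaction with naive CD4 T cells, 642 calls became 232 by DESeq2, 0 without the library term, 268 with batch as a block in its place, and 96 to 1218 with 1 library left out. The 83 calls against memory-like CD8 T cells became 0 without the library term, 9 with batch as a block in its place, and 10 to 96 with 1 library left out.

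The naive CD8 share of all cells, lower by 4.32 points (-4.32) with an exact permutation p of 0.333, had a log2 change of -1.11 (adjusted p = 0.0018) in the count model. Both shares were lower in cKO under every alternative run. Signs turned for Il1b (1.08) and Car2 (0.164) with the rule on thinned cells, and with 1 library left out for Eif3e (-0.139 to 0.244 over the 4) and Eif3a (-0.0701 to 0.403), whose main values are within 1 SE of 0. Over the named genes 659 comparisons with an alternative kept direction and side of the threshold, 143 passed it newly, 2 lost it and 5 turned. A level of a few CPM rests on few UMIs at this depth.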
